A study of Mus musculus with 24 samples.

Results

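The choroid plexus of J20 mice was compared between 2 ages, with 3 animals of 11-12 months against 4 animals of 5-6 months, which are 7 of the 24 arrays of the series. The arrays were chosen by their titles, in which the submitters write AD for J20, and each array is taken as 1 animal whose number ends the title. J20 mice carry a human amyloid precursor protein gene with mutations of familial Alzheimer's disease. The promoter used in the classic line of that name is the PDGF-B promoter, which is active mainly in neurons, and the labels do not give it for these animals. All 7 animals were J20, so both age groups carry the transgene. The other 17 arrays, of J20 mice of 3 months and of WT mice at 3, 5-6 and 11-12 months, lent their spread to the tests. The sources used here do not give sex, litter or hour of dissection.

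The choroid plexus is a frond of epithelium around leaky capillaries in each brain ventricle. Its epithelial cells secrete cerebrospinal fluid, export the thyroxine carrier transthyretin (Ttr) and form, through tight junctions, the barrier between blood and cerebrospinal fluid. The tissue also holds macrophages, fibroblasts and endothelium, and a dissected piece can bring along ependyma, brain or blood.

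RNA was hybridised to Illumina bead arrays, on which each probe gives a brightness (intensity). Values below are log2 intensities after background correction and quantile normalization (neqc), so that a difference of 1 is a doubling. A probe was detected on an array where the deposited detection p was under 0.01, and the 11464 of 25697 probes detected on at least 3 of the 24 arrays were tested. They carry 8232 gene symbols. Before normalization the mean intensity per array was 458 to 739 at 5-6 months and 358 to 670 at 11-12 months, and 35 to 40.2% and 35.9 to 39% of probes were detected. The dimmest arrays of each age were animals 18 and 35. Pearson's r over probes was 0.907 to 0.975 between arrays of 5-6 months, 0.96 to 0.99 between arrays of 11-12 months and 0.924 to 0.989 across the ages. The defining epithelial markers were bright on all 7 arrays: Ttr, Kl, Folr1, Clic6, Kcne2, Aqp1 and Otx2 were each detected on 7 of 7, and their summed linear intensity was 94600 to 108000 at 5-6 months and 97600 to 104000 at 11-12 months. Ttr and Clic6 made up 57.2 to 62.4% of that sum, and quantile normalization gives probes of the highest ranks shared values, so the sum shows that the tissue is there and not that it was steady. Without these 2 genes the sum was 35600 to 46100 at 5-6 months and 38200 to 41600 at 11-12 months.

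The genes that rose with age in J20 choroid plexus were Serpina1b and Serpina1d, which encode alpha-1-antitrypsins. They are secreted proteins of a family of protease inhibitors, made in large amounts by the liver. Serpina1b rose 4.28-fold on one probe and 2.65-fold on another, and Serpina1d rose 2.98-fold. Without background correction these were 1.90-fold, 1.38-fold (adjusted p = 0.075 in limma) and 1.43-fold (0.053), so 2 of the 3 calls were lost. In all 4 of 11464 probes (0.0349%) were higher at 11-12 months at an adjusted p under 0.05 in limma with Benjamini-Hochberg adjustment, and the other probe has no gene symbol here. No probe was lower (0 of 11464, 0%), with 98 probes (0.855%) higher and 56 (0.488%) lower at an unadjusted p under 0.05. The tissue is a mixture of cells, and in such bulk RNA fewer cells of a type and less RNA per cell cannot be told apart.

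The mouse has 5 neighbouring Serpina1 copies on chromosome 12, Serpina1a to Serpina1e, in one array of genes. Their start regions are shown because the called probes are named for copies b and d while the probes of copies a, c and e were detected on none of the 24 arrays. Each window runs from 250 bases before to 50 after the annotated start in RefSeq (GRCm38.p6), on the minus strand, and is written 5′ to 3′. The windows are chr12:103738140-103738439 for Serpina1b, chr12:103773584-103773883 for Serpina1d and chr12:103863570-103863869 for Serpina1a. The capitals mark GTTAAT, the first arm of the binding motif of HNF1, a liver transcription factor.
Serpina1b: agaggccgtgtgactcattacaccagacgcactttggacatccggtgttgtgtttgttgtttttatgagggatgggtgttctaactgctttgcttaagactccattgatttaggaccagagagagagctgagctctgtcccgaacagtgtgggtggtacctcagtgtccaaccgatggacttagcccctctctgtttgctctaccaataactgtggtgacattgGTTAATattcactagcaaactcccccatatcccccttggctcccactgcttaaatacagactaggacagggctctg
Serpina1d: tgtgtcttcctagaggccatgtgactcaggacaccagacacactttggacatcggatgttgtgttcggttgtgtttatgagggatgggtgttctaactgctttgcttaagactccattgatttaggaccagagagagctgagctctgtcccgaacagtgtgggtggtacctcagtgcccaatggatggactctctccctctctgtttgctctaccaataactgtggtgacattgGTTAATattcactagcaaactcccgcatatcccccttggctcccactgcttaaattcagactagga
Serpina1a: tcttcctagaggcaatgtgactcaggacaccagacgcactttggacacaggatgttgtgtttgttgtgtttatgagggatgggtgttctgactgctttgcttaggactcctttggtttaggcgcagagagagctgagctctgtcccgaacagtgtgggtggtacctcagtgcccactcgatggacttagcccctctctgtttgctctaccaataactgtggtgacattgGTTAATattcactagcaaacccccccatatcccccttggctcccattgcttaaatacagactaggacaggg
Of the 10 pairs among the 5 windows the aligned bases were 91.7 to 98.4% identical, and 94.1% between copies b and d. GTTAAT, searched on both strands with no other motif, was present in 5 of 5 of these windows and in 2332 of 32851 (7.1%) RefSeq start windows of the same length. It begins 26 bases before the start in Serpina1b, 16 in Serpina1d and 21 in Serpina1a. A match of letters is a description and not a site, and windows this alike are not 5 separate matches to set against that share. Probe sequences were not used here, so whether a probe named for one copy also binds the others was not tested, and the symbols of these probes are uncertain between copies.

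On the brighter Serpina1b probe the 4 animals of 5-6 months had log2 intensities of 5.55, 5.23, 5.81 and 6.08, and the 3 animals of 11-12 months had 7.63, 7.72 and 7.94. All older animals lay above all younger ones, with a gap wider than the spread within either age. The means were 5.67 ± 0.36 (SD, n = 4) and 7.77 ± 0.16 (SD, n = 3), a difference of 2.10 (SE 0.21, 95% interval 1.66 to 2.54, adjusted p = 2.26e-05 in limma). The probe was detected on 2 of 4 younger and 3 of 3 older arrays, so the younger level lies at the edge of detection. The intensities as deposited were 204, 154, 145 and 210 at 5-6 months and 259, 368 and 206 at 11-12 months. Before scaling, therefore, animal 35, on the dimmest array of the older age, was under animal 25 of the younger age. BeadChips are glass slides of 8 arrays. The sample titles do not name them, and the BeadChip numbers used here follow the order of the samples in blocks of 8. Within the BeadChips that hold both ages the difference was 2.11 on BeadChip 2, with 2 younger animals and 1 older. On BeadChip 3, with 1 and 2, it was 1.75. With the 7 arrays alone its adjusted p in limma was 0.149.

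The second Serpina1b probe read 5.62, 5.27, 5.16 and 5.09 at 5-6 months and 6.25, 6.95 and 6.87 at 11-12 months. Again the ages did not overlap, and the probe was detected on 1 of 4 younger and 3 of 3 older arrays. Its difference was 1.41 (SE 0.23, adjusted p = 0.0204 in limma), and it was 1.03 within BeadChip 2 and 1.82 within BeadChip 3. The intensities as deposited were 207, 155, 134 and 170 against 170, 269 and 151, which overlap.

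Serpina1d read 5.64, 4.52, 4.45 and 5.16 at 5-6 months and 6.04, 6.74 and 6.77 at 11-12 months. The ages did not overlap, and animal 4 came nearest to the older animals among the younger ones. The difference was 1.58 (SE 0.25, adjusted p = 0.0188 in limma), 1.56 within BeadChip 2 and 1.60 within BeadChip 3, with detection on 1 of 4 and 3 of 3 arrays. As deposited, the Serpina1d intensities were 209, 132, 118 and 172 against 164, 250 and 147, which overlap. The probe without a symbol (ILMN_2944601) was brighter, at 8.86, 8.99, 9.12 and 8.89 against 9.82, 10.20 and 10.02, and was detected on all 7 arrays. Its difference was 1.05 (SE 0.18, adjusted p = 0.0214 in limma), 0.76 on BeadChip 2 and 1.22 on BeadChip 3. As deposited, its intensities were 713, 578, 453 and 705 against 831, 1420 and 558, which also overlap.

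These 3 weaker calls depend on single animals and on the fit, whereas the brighter Serpina1b probe stayed past the threshold without any 1 of the 24. With animal 11 of 5-6 months left out, limma's adjusted p was 0.074 for each of the 3, and without animal 18 it was 0.0755 for the second Serpina1b probe and Serpina1d and 0.069 for the probe without a symbol. Without animal 28 of 11-12 months the values were 0.271, 0.219 and 0.271, and without animal 35 they were 0.239, 0.236 and 0.236, in the same order. Without animal 25 the second Serpina1b probe and the probe without a symbol had 0.108, and without animal 4 the latter had 0.0877. With 1 animal left out the log2 differences themselves stayed between 1.27 and 1.64, 1.42 and 1.83, and 0.95 and 1.14. In limma with BeadChips 2 and 3 only, the adjusted p was 0.241, 0.0894 and 0.289, and with the 11 J20 arrays alone it was 0.0558, 0.308 and 0.0558, in the same order. The brighter Serpina1b probe had 0.00719 and 0.00301 there. Without the dimmest array of each age the 3 had 0.62, 0.62 and 0.454, and in limma with the 7 arrays alone 0.973, 1 and 0.973.

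**Figure D1:**
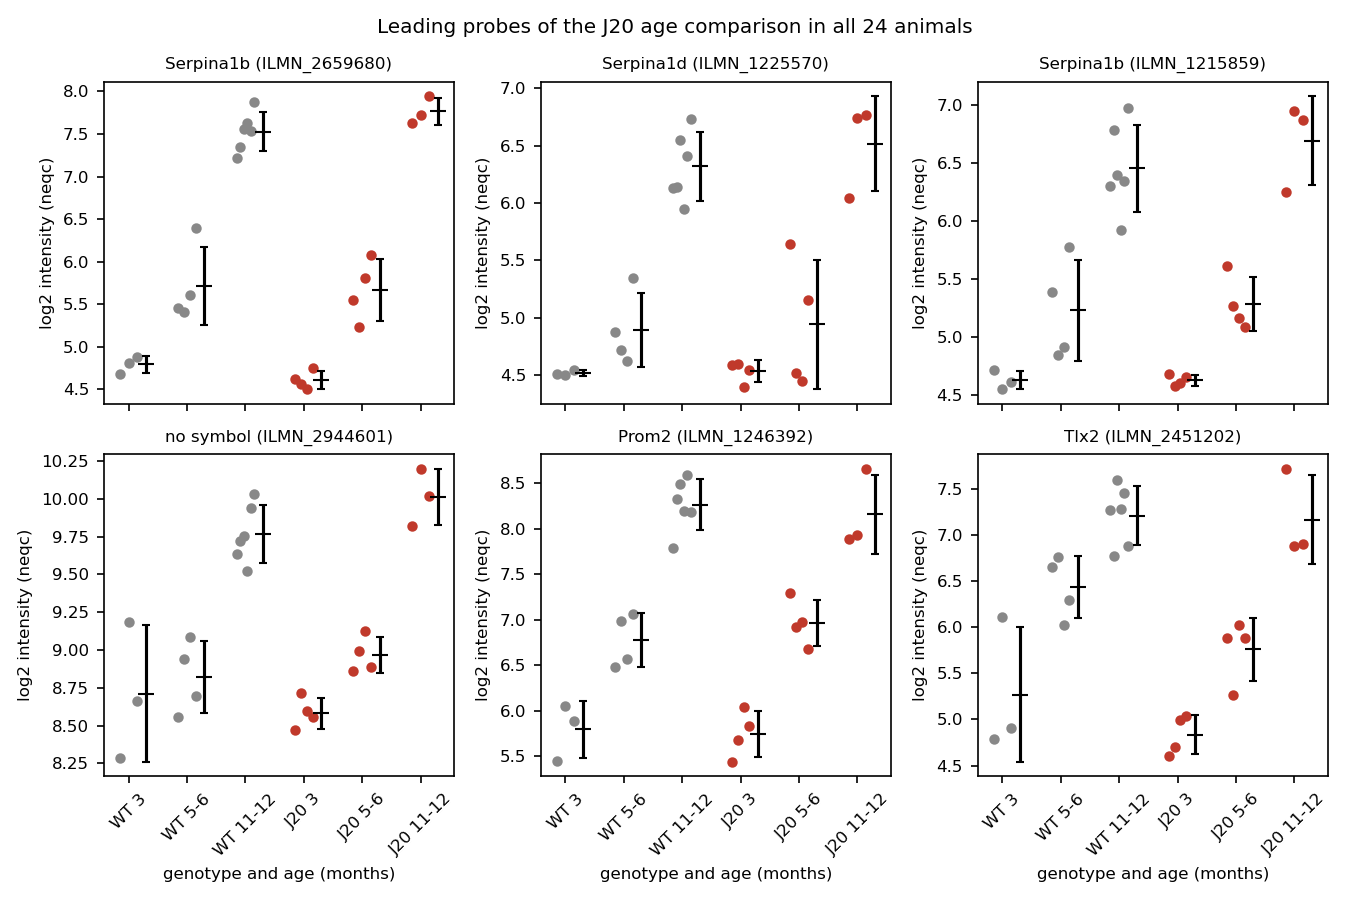
Log2 intensity (neqc, y axis, scaled per panel) of the 4 called probes and of Prom2 and Tlx2 in all 24 animals, by genotype and age in months (x axis), with points for animals and bars for the mean ± SD. On the brighter Serpina1b probe the 3 J20 animals of 11-12 months sit between 7.63 and 7.94, above the J20 animals of 5-6 months at 5.23 to 6.08.

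Liver RNA was looked for by its markers, since the liver is the main source of alpha-1-antitrypsin. Of 6 liver markers the albumin gene Alb, Apoa1, Apoh, Ahsg and Fgb were detected on none of the 7 arrays, and the sixth, Ttr, is also the leading epithelial product. Alb read 4.35 to 4.47 at 5-6 months and 4.37 to 4.51 at 11-12 months. Of the other serpins, Serpina3n, an acute-phase inhibitor, was detected on none of the 7 arrays, and Serpini1, neuroserpin, on 2 of 4 younger and 0 of 3 older arrays. Neither passed the threshold. The serpin list had 9 tested members of 39, a median difference of −0.06, and 2 called members, the alpha-1-antitrypsins.

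The age change was set beside that of WT animals, in which the comparison of the same ages uses 10 other arrays. Between 5-6 and 11-12 months the brighter Serpina1b probe rose by 1.81 in WT (adjusted p = 1.56e-05 in limma), the second by 1.22 (0.00817), Serpina1d by at least 1.64-fold (0.00475; 0 of 4 younger and 6 of 6 older arrays detected it) and the probe without a symbol by 0.95 (0.00786). All 4 probes called in J20 were thus also called in WT, where 5 of 11464 (0.0436%) were higher and 0 (0%) lower, with 189 (1.65%) at an unadjusted p under 0.05. The difference between the genotypes in the size of the age change was 0.29 for the brighter Serpina1b probe, with a 95% interval from −0.29 to 0.86. For the second Serpina1b probe it was 0.18 (−0.45 to 0.82) and for the probe without a symbol 0.10 (−0.39 to 0.58). Such intervals leave room for J20 changes that are larger or smaller than the WT ones.

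At 3 months the brighter Serpina1b probe read 4.61 ± 0.11 (SD, n = 4) in J20 and 4.79 ± 0.10 (SD, n = 3) in WT, detected on 0 arrays of either group. In order of their means the groups ran J20 of 3 months, WT of 3 months, J20 of 5-6 months at 5.67, WT of 5-6 months at 5.72, WT of 11-12 months at 7.53 ± 0.23 (SD, n = 6) and J20 of 11-12 months at 7.77. At each age the animals of both genotypes overlapped, and within each genotype the 3 ages did not.

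Prom2 and Tlx2 stood next to the alpha-1-antitrypsins without passing the test. Prom2 encodes prominin 2, a membrane glycoprotein of epithelial cell protrusions, and read 7.29, 6.92, 6.98 and 6.68 at 5-6 months against 7.88, 7.93 and 8.66 at 11-12 months. The ages did not overlap and the probe was detected on all 7 arrays. The difference was 1.19 (SE 0.23, 95% interval 0.72 to 1.66, adjusted p = 0.068 in limma), 0.93 on BeadChip 2 and 1.62 on BeadChip 3. In WT the same probe rose by 1.49 (adjusted p = 0.000661 in limma), and the genotypes' changes differed by −0.29 (−0.91 to 0.32). The other Prom2 probes were detected on 0, 0 and 2 of the 24 arrays and on 0 of the 7, and were not tested.

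Tlx2 encodes a homeobox transcription factor known from enteric neurons. It read 5.88, 5.26, 6.02 and 5.88 at 5-6 months against 7.72, 6.88 and 6.90 at 11-12 months, again without overlap. The difference was 1.41 (SE 0.29, adjusted p = 0.168 in limma), 2.08 on BeadChip 2 and 1.01 on BeadChip 3, beside 0.77 in WT. The other Tlx2 probe was detected on 2 of the 24 arrays and on 0 of the 7, and was not tested. As deposited, the intensities of Prom2 and of Tlx2 overlapped between the ages. Without WT animal 5 of 11-12 months Prom2 had an adjusted p of 0.041, and without WT animal 15 of 3 months Tlx2 had 0.022, both in limma. No other array left out gave a call for either gene. Removing J20 animals of the comparison mostly moved both away from the threshold. In limma Prom2 had 0.06 without animal 4 but 0.262, 0.321 and 0.219 without animals 11, 25 and 28. Tlx2 had 0.77, 0.321 and 0.271 in limma without animals 11, 25 and 28. The lowest differences were 0.94 for Prom2, without animal 35, and 1.13 for Tlx2, without animal 21, and these were the fits furthest from a call. Without the dimmest array of each age they had 0.92 and 0.62 in limma.

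The probes of other symbols most like the brighter Serpina1b probe over the 24 arrays were, by Pearson's r, Prom2 (0.95), Serpina1d (0.945), Tlx2 (0.88), Azgp1 (0.832) and Kmt5a (0.822). The points share the age groups, the arrays and the normalization, so these values describe likeness across this series. Azgp1, which encodes a secreted zinc-binding glycoprotein, differed by 0.60 (SE 0.24) between the J20 ages, and Kmt5a, a histone H4 lysine methyltransferase, by 0.52 (SE 0.16). Neither passed the test.

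Beyond these, the 15 genes of smallest p in each direction are values without a call. Of the 15 higher genes, which include Serpina1b and Serpina1d, 11 had no overlap between the ages, against 127 of all 11464 probes (1.11%) not overlapping in that direction. Since the 15 were picked on the same values, that count is a description. Only 3 of the 15 were detected on all 7 arrays and 6 were detected on none of the younger arrays. In WT 11 of the 15 differed in the same direction, among them Serpina1b, Serpina1d, Prom2 and Tlx2. The share over all probes is not given here, so the count is no measure of general agreement.

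Gsc, the homeobox gene goosecoid, had even younger values of 5.78, 5.71, 5.79 and 5.97 against older ones of 7.21, 6.54 and 6.64. Its J20 difference of 0.98 (SE 0.29) stood beside 0.10 in WT. Pacsin3, a membrane-bending adaptor of endocytosis, had a J20 difference of 0.66 (SE 0.16, adjusted p = 0.629 in limma) beside −0.04 in WT, and the groups did not overlap. For neither gene did the difference between the genotypes in age change pass the adjusted threshold.

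Map3k14, the kinase NIK of non-canonical NF-κB signalling, was not detected at 5-6 months and was at least 1.30-fold higher at 11-12 months, where 2 of 3 arrays detected it. Its ages overlapped, at 5.67 in animal 18 of 5-6 months and 5.59 in animal 21 of 11-12 months. Mmp23, a membrane-anchored metalloproteinase, was detected on 0 of 4 and 3 of 3 arrays and was at least 1.22-fold higher. For these bounds the dim group was set at the lowest level at which its arrays detect a probe, or at its own signal where that was higher. Nmd3, an adaptor for export of the large ribosomal subunit, Ankrd17 and Rwdd2b were also detected on 0 of 4 younger arrays and were at least 1.04-fold, 1.14-fold and 1.10-fold higher. Gm527 was detected on 0 of 4 and 1 of 3 arrays and has no fold here. The peptidase Tpp2, detected on all 7 arrays, differed by 0.56, and Lrfn4, detected on 1 of 4 and 2 of 3, by 0.72.

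**Figure D2:**
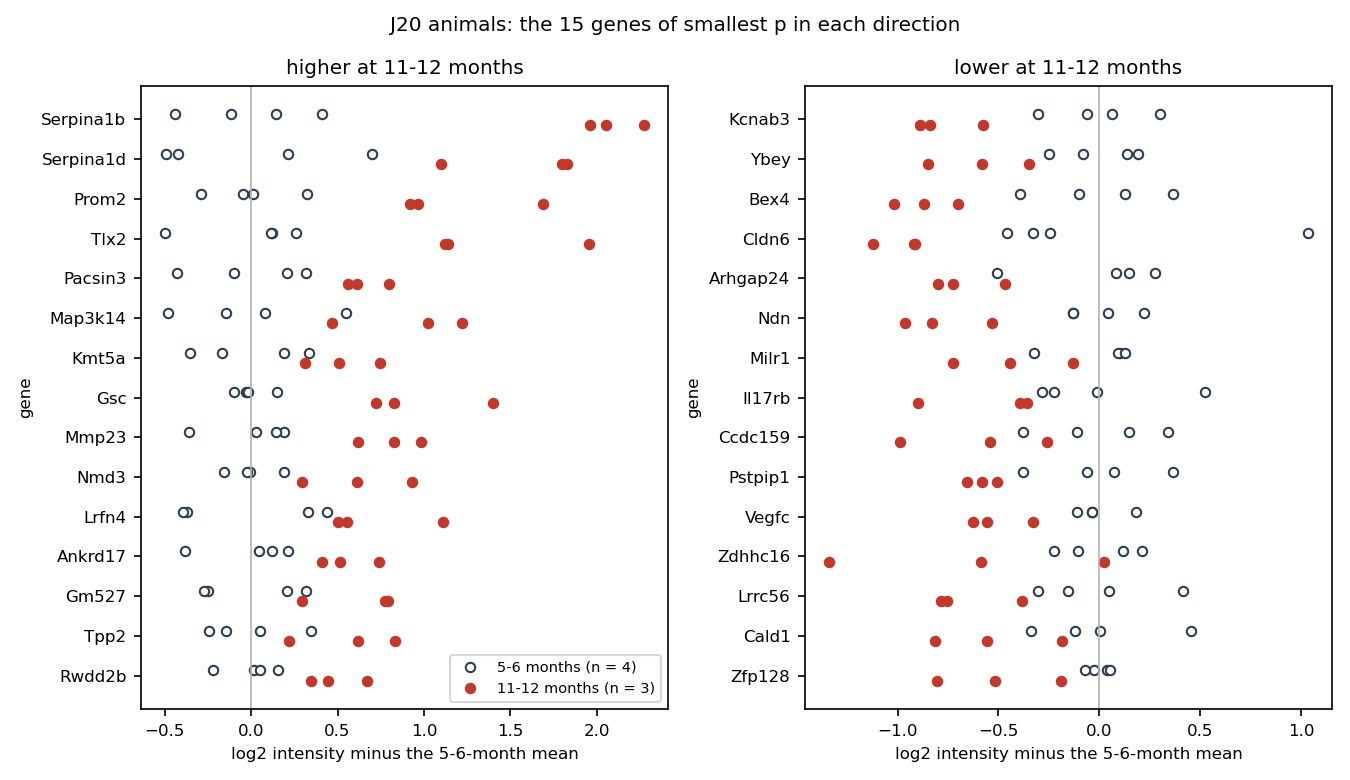
Log2 intensity of each J20 animal minus the mean of the 4 animals of 5-6 months (x axis), for the 15 genes of smallest p in each direction (y axis), with open points for 5-6 months and filled points for 11-12 months. In the left panel 11 and in the right panel 10 genes show no overlap between the ages, and only Serpina1b and Serpina1d passed the adjusted threshold.

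On the lower side the smallest adjusted p in limma was 0.757, for Kcnab3, a beta subunit of voltage-gated potassium channels. It read 5.55, 5.30, 5.91 and 5.67 at 5-6 months and 4.77, 5.03 and 4.72 at 11-12 months, and was detected on 2 of 4 and 0 of 3 arrays. Of the 15 lower genes 10 had no overlap, beside 77 of all 11464 probes (0.672%) in that direction, and 8 were detected on none of the older arrays. Whichever scaling is used matters here: with median scaling in place of quantile normalization 150 probes were higher and 33 lower without overlap.

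Ndn, the imprinted gene of the growth suppressor necdin, was the brightest of the 15. It read 10.09, 10.44, 10.09 and 10.26 against 9.68, 9.39 and 9.25, and its difference was −0.77 (SE 0.27, 95% interval −1.33 to −0.21), −0.58 on BeadChip 2 and −0.94 on BeadChip 3. In WT the difference was −0.38. Bex4, a small X-linked gene of the brain-expressed family, read 6.95, 7.24, 7.70 and 7.46 against 6.64, 6.32 and 6.47, a difference of −0.86 (SE 0.27).

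Vegfc, the growth factor of lymphatic vessels, read 6.93, 6.93, 6.86 and 7.15 against 6.34, 6.64 and 6.41. It was detected on all 7 arrays and did not overlap, with a difference of −0.50 (SE 0.19) beside −0.41 in WT. Cldn6, a claudin typical of embryonic epithelia, read 5.92, 6.05, 7.42 and 6.14 against 5.26, 5.46 and 5.47, and was at least 1.60-fold lower at 11-12 months, where no array detected it. Its high value in animal 18 stood apart from the other younger animals.

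Ybey, a ribonuclease, the Rac GTPase activator Arhgap24, the palmitoyltransferase Zdhhc16 and Zfp128 differed by −0.66 to −0.50, none past the threshold. Il17rb, a subunit of the interleukin 25 receptor, and Ccdc159 were not detected at 11-12 months and were at least 1.10-fold and 1.04-fold lower. The mast cell receptor Milr1, the cytoskeletal adaptor Pstpip1 and Lrrc56 were detected on 1 or 2 younger and 0 older arrays, the actin-binding Cald1 on none of the 7, and these 4 have no fold here. In WT 9 of the 15 lower genes differed in the same direction, again without the share over all probes.

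The lists of known gene groups were read by counts and medians beside those of all 8232 genes (1 probe each, the brightest). Over all genes the median difference was 0.01, with 2 genes higher at adjusted p under 0.05 (0.0243%). At an unadjusted p under 0.05 there were 68 higher (0.826%) and 40 lower (0.486%), and 99 (1.2%) and 60 (0.729%) did not overlap. A random order of the arrays would give 2.86% without overlap in each direction. Outside the serpins, limma called 0 of the 524 genes tested in the other 24 lists. At an unadjusted p under 0.05 there were 4 higher and 2 lower, neither a larger share than over all genes.

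The genes of the epithelium had differences close to 0 after quantile normalization. Of 35 tested epithelial genes 0 had an unadjusted p under 0.05 and 0 were without overlap, and the median difference was 0.02. Ttr read 15.08, 14.99, 14.96 and 14.99 at 5-6 months and 14.96, 15.04 and 15.08 at 11-12 months, a difference of 0.02. Only 4 distinct values occur among the 7, because quantile normalization assigns the top ranks fixed values, so this difference cannot show that Ttr was steady. With median scaling in its place Ttr differed by 0.37 (SE 0.21), Clic6 by 0.25 (SE 0.17) and the epithelial list by a median of 0.09, with adjusted p of 1 for both genes in limma. Kl, the ageing-related co-receptor klotho, differed by 0.09 (−0.24 to 0.43) on its brighter probe.

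Trpv4, a cation channel of the apical membrane, differed by 0.21 (SE 0.17), and Slco1a4, an organic anion transporter, by −0.64 (SE 0.60). Slco1a4 read 7.81, 6.61, 5.71 and 6.90 against 5.08, 6.85 and 6.41, a wide and overlapping spread. Among 17 epithelial junction genes the median was −0.02, with Cdh1, E-cadherin, at 0.64 (SE 0.29) and Cldn6 as described.

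Interferon-stimulated genes, which the study's title names, showed no call. Of 18 tested type I interferon genes 10 were above 0 and 8 below, with a median of 0.09, and 1 had an unadjusted p under 0.05. That one was Bst2, the virion-retaining protein tetherin, which read 10.11, 9.27, 9.52 and 10.39 against 10.55, 10.68 and 10.21. The ages overlapped and the difference was 0.65 (SE 0.30). Oasl2 and Irf7, a master regulator of type I interferon, were each detected on 1 of 4 younger and 0 of 3 older arrays. Isg15, a ubiquitin-like modifier, differed by 0.14 (95% interval −0.52 to 0.80).

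The list of type II interferon response and MHC class II had 19 tested members with a median of −0.10 and 0 at an unadjusted p under 0.05. Gbp2, an interferon-inducible GTPase, differed by −0.47 and the peptide loader H2-DMb1 by 0.15. The class II chain H2-Aa differed by −0.00 (95% interval −1.07 to 1.07), and the invariant chain Cd74 by −0.09 on one probe and −0.15 on the other. In the list of MHC class I presentation (12 tested, median −0.02) the immunoproteasome subunit Psmb9 differed by −0.40, the loading factor Tapbp by −0.25 and the light chain B2m by 0.02 and 0.07.

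Complement and macrophage genes lay below 0 more often than above it. In the list of acute phase, complement and iron 12 of 16 members were below 0, with a median of −0.19, and in that of macrophages and microglia 12 of 17, with a median of −0.12. These medians were −0.06 and −0.03 without animal 11, and the first was −0.31 without animal 4 and −0.10 without animal 21. The second was −0.22, −0.23 and −0.30 without animals 4, 25 and 28. Over all genes 3838 of 8232 were below 0. C1qc, a chain of the complement starter C1q, read 7.65, 8.30, 7.96 and 7.99 against 7.25, 7.65 and 7.29, and C1qb read 8.35, 8.71, 8.33 and 8.61 against 7.76, 8.28 and 8.10.

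Neither of these C1q genes overlapped between the ages, with differences of −0.58 (SE 0.36) and −0.45 (SE 0.40), beside 0.18 and 0.46 in WT. C1qa, another C1q gene, did overlap and differed by −0.21 (SE 0.30). Tyrobp, the signalling adaptor of Trem2, differed by −0.67 (SE 0.30), and the Fc receptor Fcgr3 was detected on 0 of 7 arrays. Gpnmb, a glycoprotein of lipid-laden macrophages, ran the other way at 0.45, as did Trem2 itself at 0.23 (SE 0.29). The iron-binding acute-phase protein Lcn2 was detected on 2 of 4 younger and 0 of 3 older J20 arrays, and on 0 of 4 and 2 of 6 WT arrays. The summed level of the macrophage markers Aif1 and Mrc1 was 110 to 381 at 5-6 months and 170 to 248 at 11-12 months. Their part in these values was not tested.

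**Figure D3:**
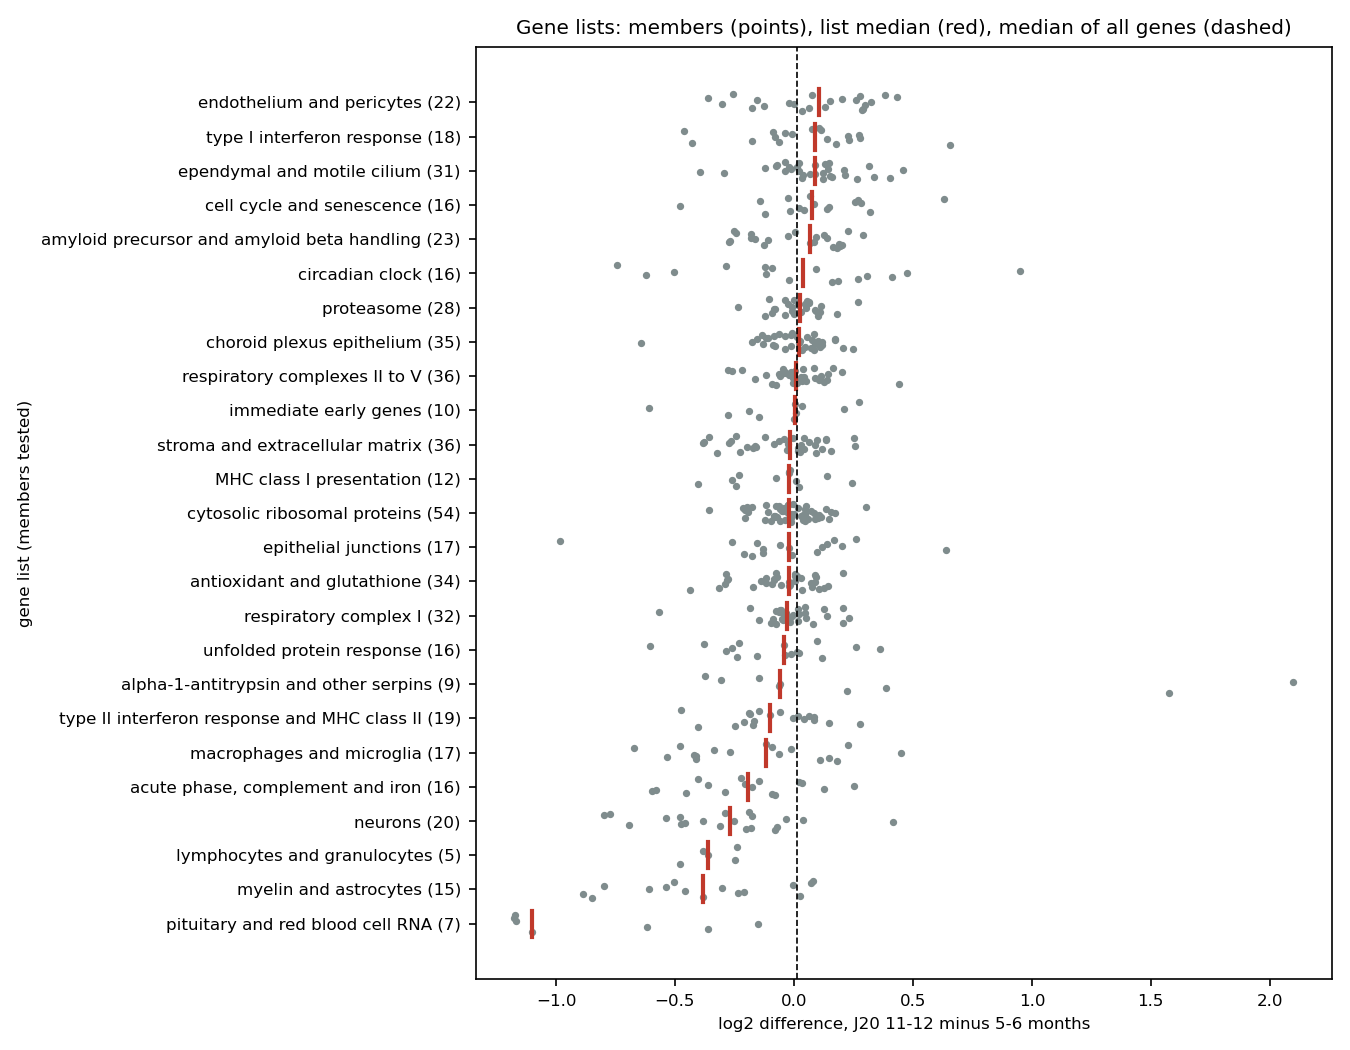
Log2 difference between 11-12 and 5-6 months in J20 (x axis) for each tested member (points) of the 25 gene lists (y axis, number tested in brackets), with the list median in red and the median of all genes, 0.01, dashed. Medians lie between −0.38 and 0.10 except that of pituitary and red blood cell RNA at −1.10, and the points at 2.10 and 1.58 are Serpina1b and Serpina1d.

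Genes of neighbouring tissue and blood had the lowest medians, and some of these rested on single younger animals. The list of pituitary and red blood cell RNA had 7 of 7 members below 0 and a median of −1.10, which was −0.23 without animal 18. In that animal the pituitary markers Gh, Prl and Pomc, the last detected on none of the 7 arrays, summed to 1880, against 66.6 to 338 in the other younger and 70.2 to 173 in the older animals. Its erythroid markers Alas2 and Hba-a1 summed to 16100, against 601 to 3960 and 873 to 1690. Alas2, which starts haem synthesis in red cell precursors, read 4.90, 5.96, 8.59 and 5.07 against 5.18, 4.82 and 4.88.

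Of 20 tested neuronal genes 18 were below 0, with a median of −0.27. That median was 0.17 without animal 11, whose neuronal markers summed to 964, against 195 to 424 in the other younger and 224 to 372 in the older animals. The defining markers Snap25 and Nefl were detected on none of the 7 arrays. Gria2, an AMPA receptor subunit, read 5.75, 7.63, 6.52 and 4.99 against 5.66, 5.50 and 5.11, and the glutamate transporter Slc17a6 read 5.11, 8.09, 6.20 and 4.75 against 5.40, 5.31 and 5.09. For both genes the highest value was that of animal 11, the older animals lay inside the younger range, and no older array detected the gene. Only 5 of the 20 neuronal genes were detected on all 7 arrays.

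The list of myelin and astrocytes had a median of −0.38 over 15 members, between −0.51 and −0.26 with each of the 7 animals left out in turn and −0.14 without the dimmest array of each age. The mean of its centred values was 0.80 in animal 11 and 0.53 in animal 18, while it was −0.23 and −0.38 in the younger animals 4 and 25 and −0.37 to 0.11 in the older ones. Of its 15 members 7 were detected on all 7 arrays. Mobp, a myelin protein, and Mal, a proteolipid of myelin, were detected on 2 of 4 younger and 0 of 3 older arrays, Mobp at least 1.10-fold lower in the latter, and Gfap was detected on none of the 7 arrays. The 5 tested lymphocyte and granulocyte genes had a median of −0.36, which was 0.26 without animal 11, and 1 of the 5 was detected on all 7 arrays. Camp, the neutrophil peptide cathelicidin, read 5.50, 7.14, 5.28 and 5.39 against 5.88, 4.95 and 5.51.

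**Figure D4:**
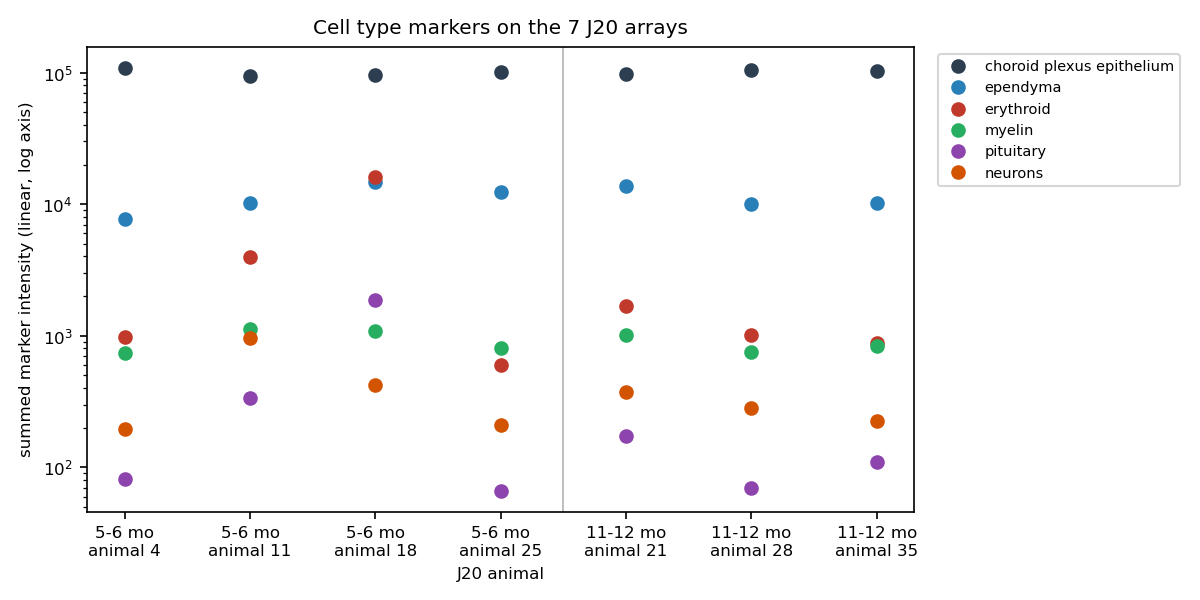
Summed linear intensity of cell type markers (y axis, log scale) on each of the 7 J20 arrays (x axis, animals of 5-6 months left of the line and of 11-12 months right of it). Epithelial markers lie between 94600 and 108000, of which 57.2 to 62.4% comes from the top-ranked Ttr and Clic6, while erythroid markers reach 16100 and pituitary markers 1880 in animal 18.

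Vessel, cilium and matrix genes were close to the median of all genes. Endothelium and pericytes had a median of 0.10 over 22 genes (−0.14 without animal 4), with Pecam1, an adhesion molecule of endothelium, at 0.38 and Cspg4, the pericyte proteoglycan NG2, at −0.30. Of 31 ependymal and motile cilium genes 22 were above 0, with a median of 0.09. Dnaic1, a dynein intermediate chain of motile cilia, read 8.71, 8.57, 9.27 and 9.15 against 9.39, 9.18 and 9.57, a difference of 0.46 (SE 0.16) with an adjusted p of 1 in limma. Ift46, a cilium transport protein, differed by −0.39. The ependymal markers Foxj1 and Rsph1 summed to 7750 to 14600 at 5-6 months and 10100 to 13800 at 11-12 months, and their part in the cilium values was not tested. The 36 stromal genes had a median of −0.02, with Lama2, a laminin chain, and Timp1, an inhibitor of metalloproteinases, both at −0.38.

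Lists of energy metabolism and protein turnover had medians close to 0. Medians were −0.03 for 32 genes of respiratory complex I, 0.01 for 36 of complexes II to V, −0.02 for 54 cytosolic ribosomal proteins and 0.02 for 28 proteasome genes. Ndufb2, a complex I subunit, was the 1 gene of these lists without overlap, at 6.81, 6.45, 6.61 and 6.83 against 6.90, 6.97 and 6.85. Its difference was 0.23 (SE 0.27). The complex I subunit Ndufb11 was detected on 2 of 4 and 0 of 3 arrays. Ndufa8 of the same complex differed by 0.13, Sdhd of complex II by 0.44 and Atp5h of the ATP synthase by 0.17. Rpl30 differed by −0.36, Rpl27a by −0.21, Psmd1 by 0.27 and Psma3 by 0.11.

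The unfolded protein response list had a median of −0.04 over 16 genes, with the endoplasmic reticulum proteins Creld2 at −0.61 (SE 0.35) and Dnajb9 at −0.38 (SE 0.32). The antioxidant list had a median of −0.02 over 34, with Prdx4, a peroxiredoxin of the secretory pathway, at −0.28. Mt2, a metallothionein, read 5.97, 5.70, 5.88 and 6.02 against 5.51, 5.64 and 5.21 and did not overlap.

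In the list of amyloid handling (23 tested, median 0.07) the transgene's mouse counterpart App differed by 0.14 (95% interval −0.51 to 0.78), and whether its probe also reads the human sequence was not tested. Ncstn, nicastrin of the gamma-secretase complex, differed by −0.24 and Itm2b, whose product binds the precursor, by −0.18. Sorl1, a sorting receptor of the precursor, read 7.01, 6.95, 7.41 and 6.99 against 6.77, 6.88 and 6.81. The ages did not overlap and the difference was −0.27 (SE 0.22).

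Of 16 clock genes 8 were above and 8 below 0. Arntl, the activator BMAL1, read 6.54, 5.57, 4.51 and 4.94 against 5.93, 6.31 and 6.78, a difference of 0.95 (SE 0.35), and Ciart, a repressor of that activator, read 5.42, 5.60, 5.36 and 6.15 against 4.69, 5.00 and 4.97, with detection on 2 of 4 and 0 of 3 arrays. In WT Arntl differed by 0.00, and the difference between the genotypes in age change did not pass the adjusted threshold. The immediate early genes Zfp36 and Egr1 differed by 0.27 and −0.61 (median of 10 genes 0.00), and Egr1 ran from 7.12 to 8.68 at 5-6 and from 6.93 to 8.52 at 11-12 months. In the list of cell cycle and senescence (16 tested, median 0.08) the stress gene Gadd45g differed by 0.63 (SE 0.35) and the replication factor Mcm5 by 0.26.

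The age change in J20 was last set against that in WT for every probe. In limma 0 of 11464 probes (0%) had a different age change at an adjusted p under 0.05, and 159 (1.39%) had an unadjusted p under 0.05. Over the 11464 probes the J20 and WT differences, which share no array, had a Pearson's r of −0.162. The smallest p values, picked after the values were seen, belonged to Gnl3l, Toporsl, Ybey, Zfp423 and Snrk, each with an adjusted p of 1 in limma. Ybey differed by −0.59 in J20 and 0.21 in WT. Zfp423, a zinc finger transcription factor, differed by 0.48 in J20 and −0.45 in WT, and the kinase gene Snrk by −0.13 and 0.42.

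**Figure D5:**
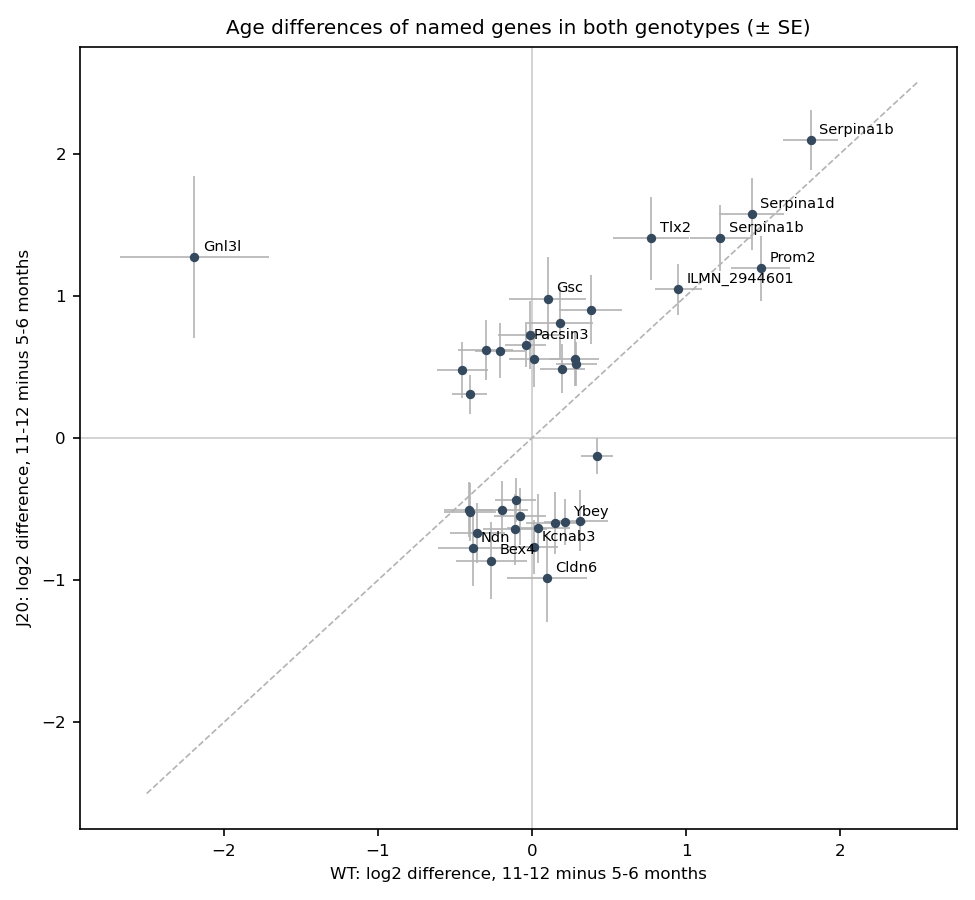
Log2 difference between 11-12 and 5-6 months in WT (x axis) and in J20 (y axis) for the called probes, the 15 genes of smallest p in each direction and the 5 of smallest p for the difference between genotypes, with bars of 1 SE and a dashed line of equality. The 4 called probes and Prom2 lie near the line, between 0.95 and 1.81 in WT and between 1.05 and 2.10 in J20, and Gnl3l lies at −2.19 and 1.27.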

How the data were processed

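Choroid plexus RNA of 24 mice was profiled, 1 Illumina array each. Per the file headers the authors deposited a non-normalized probe intensity and a detection p-value per array. The deposited series matrix holds log2 values, which equal the quantile-normalized log2 of those intensities to within 5e-09 and served as an alternative. The scanner and its software are likewise not given in the sources used here.

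With limma 3.58.1 (R 4.3.3), neqc applied normexp background correction, its controls inferred from detection p, an offset of 16 and quantile normalization. One fit with a mean per group over 6 groups gave the J20 age difference and its difference from that of WT, with Benjamini-Hochberg adjustment over every tested probe and calls at adjusted p under 0.05. The fit was tried on simulated data with independent normal values per probe, which cannot check the background correction or the normalization. Symbols came from the series' probe table, updated through RefSeq identifiers (23978 probes with 1 symbol, 1719 with none). Members, gene lists, tests and the naming rule were chosen with earlier results of these data known. The rule names called probes, 15 genes per direction by p, a fixed set of epithelial, interferon and Serpina1 genes where tested, the 5 probes most like Serpina1b and up to 4 members per list by p, of which the text gives 2. Members of a list that did not overlap were added after their values were seen. Where no array of a group detected a probe, the text gives a bound or no fold, while figures, list medians and alternatives use fitted differences. In the main fit p-values rest on the spread between animals within all 6 groups, not only the J20 animals compared. The number of arrays limits the precision of these p-values. Start windows were aligned with Biopython 1.88. Alternatives covered background correction, scaling, offset, filter, BeadChip as a block, array weights, the arrays in the fit and each array left out.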

Additional observations from a re-analysis of the deposited data

Results flagged for a closer look

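Of 117 groups examined for an animal far from the others, 6 had one, and chance alone marks about 5% of groups. All 6 were in J20 animals of 5-6 months, given as log2 intensities. Animal 18 had 7.42 for Cldn6, where the other 3 ran from 5.92 to 6.14. It had 7.41 for Sorl1, beside 6.95 to 7.01, and 9.58 for Zfp36, beside 8.80 to 8.88. Animal 4 had 5.24 for Milr1, under 5.66 to 5.69 in the others, and 5.59 for Timp1, under 6.51 to 6.67. Animal 11 had 7.14 for Camp, above 5.28 to 5.50.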

How the results depend on the processing

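The 4 probes called higher became 2 without background correction, 2 with detection on at least 12 arrays, 1 with BeadChips 2 and 3 only, 1 with the 11 J20 arrays alone, 0 with the 7 arrays alone (limma, 108 probes at unadjusted p under 0.05), 1 without the dimmest array of each age and 8 with array weights (7 higher and 1 lower). Leaving out 1 array gave 1 to 5. The brighter Serpina1b probe was called in all of these except the fit of the 7 arrays alone. Called list members, 2 at first, were 0 with the 7 arrays alone, 1 in the other settings named here that made fewer calls, and 1 to 2 with 1 array left out. Array weights added Prom2, Tlx2 and Map3k14 to the named genes called, 7 probes in all, and an offset of 50 added Prom2. No setting that allows it called a different age change in J20 and WT (0 in each). Probes without overlap, 204 in all (127 higher and 77 lower), numbered 886 (453 and 433) with no filter, 1317 (748 and 569) without the dimmest arrays and 1813 (1016 and 797) without the 3 arrays highest on the first component, which compare fewer arrays. With 1 array left out they numbered 388 to 1002 (208 to 570 and 155 to 432). Those lower were 33 with median scaling and 49 with either stricter filter. Leaving out the dimmest or the first-component arrays was chosen after seeing the data.

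Of 3801 values of single genes 3719 kept direction and side of the threshold, and 45 changed sign, the cause of which was not tested. With BeadChip as a block these were B2m (−0.21 and −0.20), Isg15 (−0.069), Ttr (−0.012), App (−0.081) and the dimmer Kl probe (−0.019). Without the dimmest arrays they were Ltf (0.15), Sdhd (−0.13), B2m (−0.16 and −0.13), Ttr (−0.020), App (−0.24), H2-Aa (0.49) and the dimmer Kl probe (−1.10), and the difference between genotypes for Serpina1d (−0.14). Median scaling turned Fcgr3 (0.015), Itm2b (0.020) and H2-Aa (0.090). H2-Aa was 0.016 without background correction and 0.012 at an offset of 50. Array weights turned Isg15 (−0.053) and Prom2's difference between genotypes (0.14), signal strength as a covariate Tapbp (0.021), and leaving out the 3 first-component arrays Cd74 (0.053 and 0.028) and Isg15 (−0.026). With 1 array left out the ranges that crossed 0 were −0.071 to 0.48 for App, −0.093 to 0.21 and −0.11 to 0.29 for B2m, −0.60 to 0.055 for Camp, −0.27 to 0.14 and −0.24 to 0.028 for Cd74, −0.30 to 0.37 for H2-Aa, −0.62 to 0.98 for the dimmer Kl probe (0.038 to 0.15 for the brighter one, which crossed 0 in no case), −0.90 to 0.26 for Ltf, −0.0062 to 0.054 for Ttr and −0.015 to 0.39 for Serpina1d's difference between genotypes. Of 500 list medians 474 moved by less than 1 SD between animals.

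No paired analysis was possible because no animal number is shared by the groups compared. BeadChip 1 holds 1 of the 7 arrays, animal 4, and none of 11-12 months. The called Serpina1 probes were near background at 5-6 months, so their fold depends on the background correction.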

Other observations

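Gnl3l, which encodes a nucleolar GTPase, read at 2 separate levels over the 24 animals. It was low, between 4.69 and 6.01 on the log2 scale, in all 6 WT animals of 11-12 months, in WT animal 15 of 3 months and in J20 animals 4 and 11 of 5-6 months, and high, between 7.60 and 8.08, in every other animal. Among the 7 J20 animals compared here the values were 5.82, 4.69, 7.70 and 7.97 at 5-6 months and 7.88, 7.70 and 7.87 at 11-12 months.

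The 2 probes of Kl disagreed in their spread. The brighter one ran from 13.59 to 13.91 over the 7 J20 animals, and the dimmer one from 6.59 to 10.29 (10.29, 6.73, 6.68 and 8.80 at 5-6 months against 6.59, 8.42 and 9.80 at 11-12 months).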
